A study of Homo sapiens with 24 samples.

Results

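PLA2G2A encodes group IIA secreted phospholipase A2, and its signal was followed over 24 expression arrays. The cells were SW1222, a human line established from a colorectal cancer. It is 1 of 17448 genes measured, and 1 probe set maps to it. The gene was selected on measured values, because it shifted strongly in the DPPA3-induced line, the DPPA3 knockdown and a knockout clone, so its own values are given here as a description and with no test. DPPA3 encodes a small protein of germ cells and early embryos. The study set its gain and loss beside a slow cell cycle and HIF1A, an oxygen-regulated transcription factor.

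The arrays fell into 9 groups. The line overexpressing DPPA3 (the induced line) and its control line were grown in 3D, as megacolonies embedded in Matrigel, with 5 µg/ml doxycycline over the last 5 days, on 3 arrays each. The same lines were also grown in 2D, with 5 µg/ml doxycycline for 4 hours, again on 3 arrays each. Cells with a shRNA against DPPA3 were set beside cells with a control shRNA, on 3 arrays per group and all in 3D. For the CRISPR knockout of DPPA3, each of the clones C66 and C75 had 2 arrays, as did the cells with a scrambled guide RNA that served as their control, all in 3D. Each knockout is thus 1 clone. All cells were kept at 21% oxygen, 5% CO2 and 37 °C. No uninduced arrays of the induced line were analysed here, so what DPPA3 changed and what set the lines apart beforehand cannot be told apart. Culture form and length of doxycycline treatment changed together between 3D and 2D, and these also cannot be told apart. Whether replicate arrays came from separate cultures is not said in the labels, so errors and p-values measure the spread between these arrays, whose number limits the precision.

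Secreted phospholipases A2 cut phospholipids outside the cell or on its surface into a free fatty acid and a lysophospholipid. The fatty acid, often arachidonic acid, can be turned into prostaglandins and leukotrienes by cyclooxygenases and lipoxygenases, and the lysophospholipid can signal or be rebuilt into phospholipid. Group IIA is a strongly cationic enzyme that kills Gram-positive bacteria and is a typical product of Paneth cells, the antimicrobial cells of the small intestinal crypt. It rises in blood during acute inflammation, and in mice Pla2g2a modifies the number of intestinal tumours in Apc-mutant animals.

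In RefSeq (GRCh38.p14) PLA2G2A lies on the minus strand of chromosome 1 and has 3 start sites, each with a window of 250 bases before and 50 after it. Since the study names HIF1A, the windows were searched on both strands for the core of the hypoxia response element, in its forms ACGTG and GCGTG, which do not overlap here. The stretches around both matches are shown because they are the only ones in the 3 windows. They are printed 5′ to 3′ on the gene's strand, and the capitals mark the match, which reads as the motif on the opposite strand.
ACGTG match, chr1:19979793-19979822: catcagctactgaCACGTaaggtttcccaa
GCGTG match, chr1:19979689-19979718: tccaccaactgacCACGCccatccccagcc
The first lies at -150 from start site 2 and the other at -46, and the window of start site 3 holds both again, at -191 and -87. The window of start site 1 holds neither form. Of 35116 windows of the same length in the RefSeq table, 21.4% held ACGTG, 36.5% held GCGTG and 48.4% held either. The windows of PLA2G2A had 3, 5 and 4 CG dinucleotides, against a median of 14 over all windows. A match is a run of letters and shows no binding.

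PLA2G2A was bright in every control group and lowest in the induced line in 3D. All values are RMA signals on the log2 scale, where a difference of 1 is a factor of 2. In 3D the induced line read 6.70, 7.25 and 6.70, and its control line 10.18, 10.20 and 10.08. Every induced array lay below every control array, by at least 2.83 log2, and the induced array at 7.25 stood above the others of its group. In 2D the induced line read 8.95, 8.82 and 8.82, and its control line 10.38, 10.46 and 10.44. These groups were apart by at least 1.42, and the induced arrays lay closer together than in 3D.

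The DPPA3 shRNA arrays read 10.37, 10.53 and 10.57 and the control shRNA arrays 9.69, 9.73 and 9.69, so here the manipulated cells were the higher group, by at least 0.64. The scrambled-guide arrays read 10.22 and 9.99. Clone C66 read 9.71 and 9.56 and clone C75 read 8.52 and 8.35, so both clones lay below their control on every array, by at least 0.28 and 1.48. From 87.2% to 99.6% of all probe sets gave a lower signal than PLA2G2A on the same array, so no array read it at the dim end of the scale. In bulk samples, fewer cells with the RNA and less RNA per cell cannot be told apart.

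**Figure D1:**
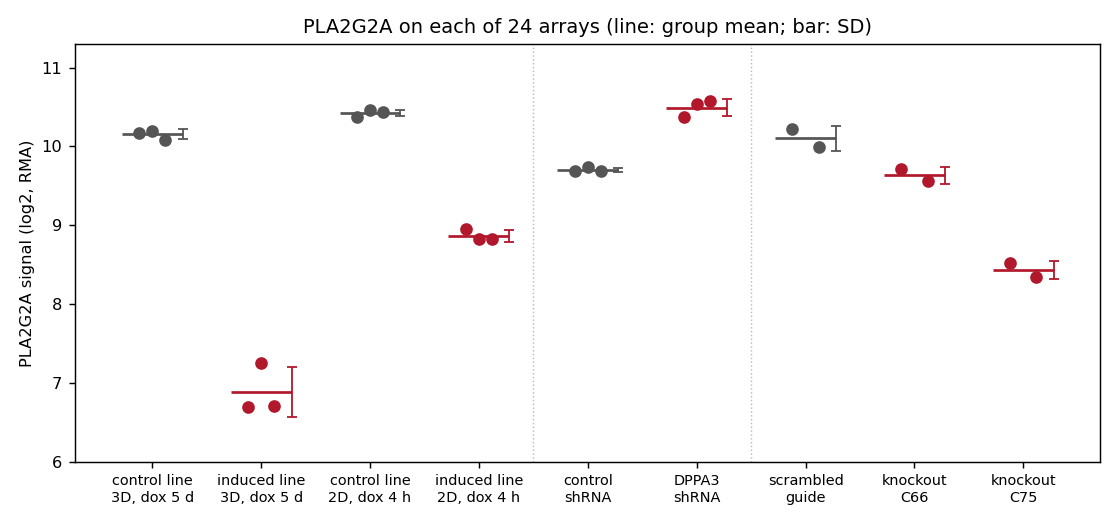
PLA2G2A signal (log2, RMA) on each of the 24 arrays, by group; lines are group means and bars SD, with 3 arrays per group or 2 in the knockout experiment. The induced line in 3D is lowest (6.70 to 7.25), and the DPPA3 shRNA arrays lie above their controls while both knockout clones lie below theirs.

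Ordered from low to high, the group means were 6.88 ± 0.31 (SD, n = 3) in the induced line in 3D, 8.43 ± 0.12 (SD, n = 2) in clone C75, and 8.87 ± 0.077 (SD, n = 3) in the induced line in 2D. Clone C66 followed at 9.63 ± 0.11 (SD, n = 2), then control shRNA at 9.70 ± 0.026 (SD, n = 3) and the scrambled guide at 10.10 ± 0.16 (SD, n = 2). The highest were the control line in 3D at 10.15 ± 0.064 (SD, n = 3), the control line in 2D at 10.42 ± 0.044 (SD, n = 3) and DPPA3 shRNA at 10.49 ± 0.11 (SD, n = 3). Neighbours in this order overlapped in 3 places, namely C66 with control shRNA, the scrambled guide with the control line in 3D, and the control line in 2D with DPPA3 shRNA. The means spanned 3.61 log2, or 12.2-fold. The 3 control groups in 3D alone spanned 0.45 log2, or 1.37-fold, beside a difference of -0.47 between C66 and its own control.

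As differences of means, PLA2G2A was 9.64-fold lower in the induced line in 3D (-3.27 log2, SE 0.12) and 2.95-fold lower in 2D (-1.56, SE 0.12). No other gene differed by more in 3D, and 6 genes did in 2D. It was 1.73-fold higher with the DPPA3 shRNA (0.79, SE 0.12), where 7 genes differed by more. It was 1.39-fold lower in C66 (-0.47, SE 0.14) and 3.19-fold lower in C75 (-1.67, SE 0.14), with 625 and 3 genes differing by more. Both clones were set against the same 2 control arrays, so these 2 differences share their control.

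The gap between the lines was wider in 3D than in 2D by -1.71 log2 (SE 0.17). Within the induced line, 3D cultures read 3.95-fold lower than 2D cultures (-1.98, SE 0.12), and no arrays overlapped. Within the control line, the same step was 1.21-fold lower (-0.27, SE 0.12), and 3513 genes differed by more. Clone C75 read 2.30-fold lower than C66 (-1.20, SE 0.14), with no overlap. Leaving out the induced 3D array at 7.25 moved the 3D difference to -3.45, and leaving out either scrambled-guide array moved the C66 difference to -0.58 or -0.36.

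**Figure D2:**
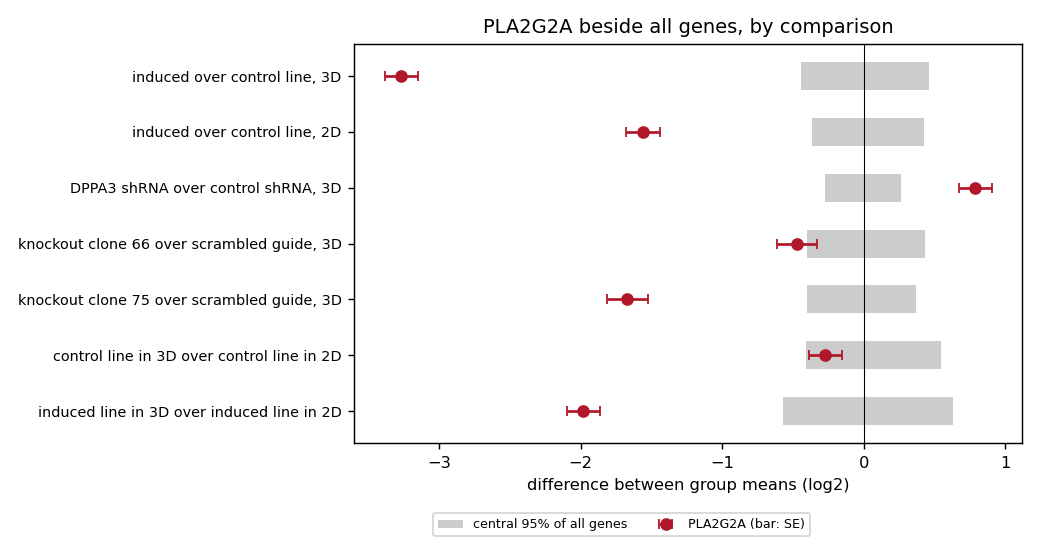
Difference between group means of PLA2G2A (points, log2, bars are SE) in 7 comparisons, with the central 95% of all 17448 genes as grey bars. The gene lies outside the grey bar in 6 comparisons, at -3.27 in the induced line in 3D and at 0.79 with the shRNA, and inside it in the control line in 3D over 2D (-0.27).

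The targeted gene, DPPA3, checked the labels only in part. DPPA3 read 3.77, 4.54 and 4.74 in the induced line in 3D against 2.99, 2.59 and 2.97 in its control, and 4.73, 4.18 and 6.16 in 2D against 2.83, 3.27 and 3.47. The shRNA arrays (2.71, 3.13 and 2.77) overlapped their controls (2.80, 2.78 and 3.15), and C66 (2.55 and 2.82) and C75 (3.19 and 2.89) lay around the scrambled guide (2.68 and 3.03). These controls lie below 4.08, the median signal over all genes and arrays, so a loss of DPPA3 RNA could be missed. In the induced line in 3D, PLA2G2A read 6.70 on the arrays with the lowest and the highest DPPA3 value, 3.77 and 4.74. Replicate arrays of a group correlated at r = 0.987 to 0.994 across genes, which are not independent replicates, and array medians ran from 4.01 to 4.12. Markers of colon epithelium (11 genes, such as EPCAM and CDH17) had group means of 8.73 to 9.13. Those of leukocytes (12 genes) had 3.06 to 3.26 and those of fibroblasts (12 genes) 2.81 to 2.89.

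Of the other secreted phospholipases A2, 8 of 10 had a probe set of their own. None passed in the comparisons of the induced line, the knockdown or the clones, where a gene passed at an adjusted p under 0.05 by limma with Benjamini-Hochberg adjustment over all genes. Where a call below is said to be lost under own-array variance, the variance came from the arrays of that comparison alone. At an unadjusted p under 0.05 there was 1 of 8 in the induced line in 2D, 1 in the knockdown and 0 in the induced line in 3D, C66 and C75. Their differences in the induced line in 3D ran from -0.13 to 0.30 log2, beside -3.27 for PLA2G2A, with limma adjusted p from 0.483 to 0.980.

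The levels of these relatives varied little between groups, apart from PLA2G10. PLA2G2D, PLA2G2E, PLA2G2F and PLA2G5 share the gene cluster of PLA2G2A on chromosome 1, and their group means ran from 4.54 to 4.79, 3.02 to 3.42, 3.18 to 3.43 and 2.70 to 3.01. PLA2G1B, the pancreatic digestive enzyme, ran from 3.24 to 3.71, PLA2G3 from 2.87 to 3.23 and PLA2G12B from 3.69 to 3.99. Each of these 7 genes kept a far narrower range than PLA2G2A on its own probe set, whose group means ran from 6.88 to 10.49. All but PLA2G2D had every group mean below 4.08, the median signal over all genes and arrays. Differences are understated there, so a narrow range or a missing call says little. PLA2G10, the most active of the family on phosphatidylcholine, ranged from 4.42 to 6.06, and its replicates lay far apart. In the control line it read 5.01, 5.37 and 6.14 in 3D and 3.53, 4.98 and 4.76 in 2D, a rise of 1.08 log2 (limma adjusted p = 0.0332). That call was lost without control 3D replicate 2 or 3, or control 2D replicate 1, with an adjusted p of up to 0.233, and also under own-array variance and a trended robust prior.

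Around PLA2G2A on chromosome 1, the 10 nearest measured genes on each side were compared in the same way. In the induced line in 3D 0 of 20 were higher and 2 lower, and their median difference was -0.00 log2. In 2D 0 were higher and 1 lower, and in C75 likewise 0 and 1, while in C66 1 was higher and 0 lower. With the shRNA 0 of 20 passed by limma, and 2 had an unadjusted p under 0.05. In the control line in 3D over 2D 0 passed, and 4 had an unadjusted p under 0.05. Among all genes, 2.93% were higher and 2.77% lower in the induced line in 3D, and 1.87% and 1.26% in 2D. With the shRNA the shares were 0.0344% and 0.0516%, in C66 0.871% and 0.562%, in C75 0.138% and 0.481%, and in the control line 4.92% and 2.88%.

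CAMK2N1, an inhibitor of the calcium/calmodulin-dependent kinase CaMKII, was the neighbour that passed in 3 comparisons. It read 7.03, 6.98 and 6.91 in the induced line in 3D, against 7.44, 7.41 and 7.56 in the control line, a fall of 0.50 log2 (SE 0.10, limma adjusted p = 0.00341). In 2D it read 6.05, 6.40 and 6.26 against 7.22, 7.51 and 7.36 (-1.13 log2, SE 0.10, limma adjusted p = 1.37e-07). In C75 it read 7.06 and 7.10 against 8.08 and 8.10 in the scrambled guide (-1.01 log2, SE 0.13, limma adjusted p = 4.45e-05). CAMK2N1 was thus lower in the same 3 comparisons in which PLA2G2A differed by -3.27, -1.56 and -1.67, with no overlap of arrays. The excess of its induced-line difference in 3D over that in 2D was 0.63 log2, with the opposite sign to PLA2G2A (-1.71), and did not pass (limma adjusted p = 0.0683). In C66 CAMK2N1 read 8.23 and 8.19 and did not pass, at 0.12 log2, nor did it with the shRNA, at -0.10. OTUD3, a deubiquitinase, fell by 0.46 log2 in the induced line in 3D (limma adjusted p = 0.0100), and the call was lost without induced 3D replicate 2 or control 3D replicate 3 (adjusted p up to 0.0635) and under own-array variance (0.0661). CDA, cytidine deaminase, rose by 0.75 log2 in C66 (limma adjusted p = 0.0480), a call lost when any single array of that comparison was left out (adjusted p up to 0.386).

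**Figure D3:**
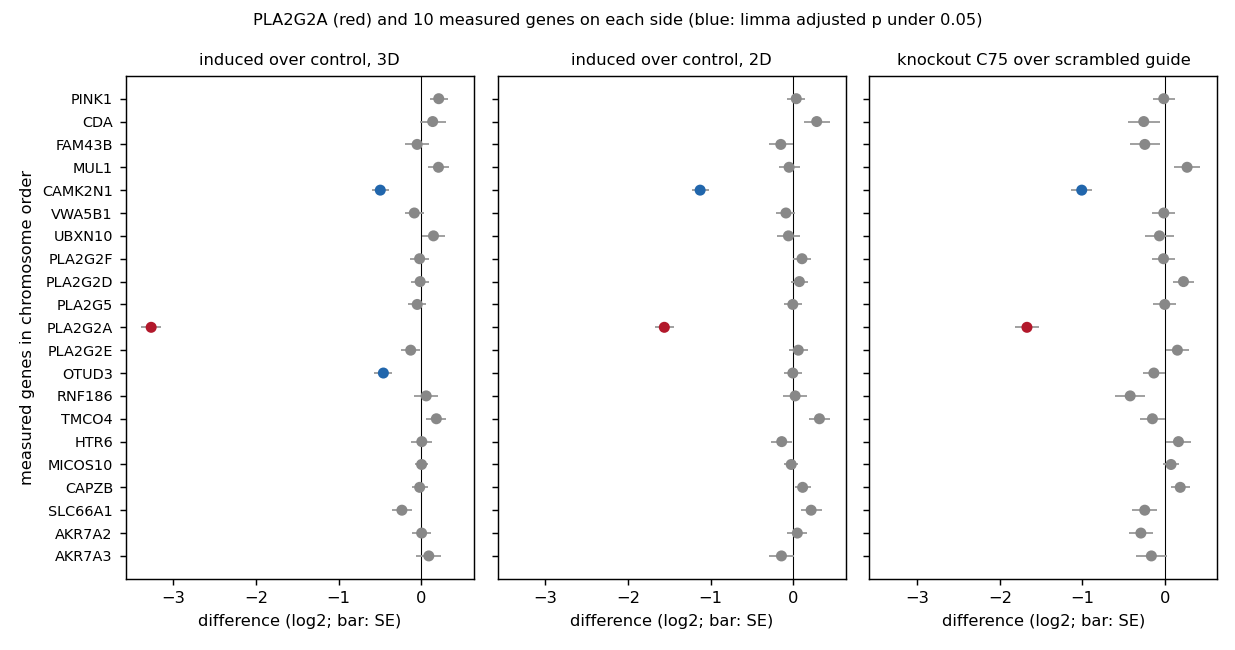
Differences between group means (log2, bars are SE) of PLA2G2A and the 10 nearest measured genes on each side, in chromosome order, in 3 comparisons; blue points passed the limma test and PLA2G2A, in red, was not tested. PLA2G2A lies at -3.27, -1.56 and -1.67, and CAMK2N1 at -0.50, -1.13 and -1.01, while OTUD3 (-0.46 in the first comparison) is the other neighbour that passed.

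The pathway around the enzyme was read from 7 lists with 136 measured genes, PLA2G2A left out. Of 136 genes, 6 were higher and 6 lower in the induced line in 3D, in 2D 5 and 3, with the shRNA 1 and 0, in C66 2 and 1, and in C75 1 and 4. The median difference over the 136 genes lay between -0.02 and 0.02 log2 in these comparisons, beside -0.01 to 0.00 over all genes. In the control line in 3D over 2D 6 were higher and 4 lower. The shares over all genes, higher and lower, were 2.93% and 2.77% in the induced line in 3D and 1.87% and 1.26% in 2D. They were 0.0344% and 0.0516% with the shRNA, 0.871% and 0.562% in C66, and 0.138% and 0.481% in C75. For the control line they were 4.92% and 2.88%. In the test of whether the induced line differed from its control by a different amount in 3D than in 2D, 0 of 136 passed by limma and 14 had an unadjusted p under 0.05. Among all genes, 0.103% passed that test as higher and 0.138% as lower. Without induced 3D replicate 2, 1 of 136 passed it.

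Among receptors and binding partners, 14 of 15 genes were measured. ITGB1, the integrin beta subunit of the fibronectin and collagen receptors and of an integrin reported to bind the enzyme, was lower in 3 comparisons. It read 5.99, 6.04 and 6.04 in the induced line in 3D against 6.30, 6.36 and 6.58, a fall of 0.39 log2 (SE 0.10, limma adjusted p = 0.0157). In 2D it read 5.85, 5.84 and 5.83 against 6.28, 6.13 and 6.39 (-0.42 log2, SE 0.10, limma adjusted p = 0.0132). In C75 it read 5.86 and 5.88 against 6.57 and 6.48 (-0.65 log2, SE 0.12, limma adjusted p = 0.00423). Its group mean in C66 was 6.63 against 6.53, and with the shRNA 6.62 against 6.71. No arrays overlapped in the 3 comparisons where ITGB1 was called lower, but each call was lost without at least 1 array. In 3D these were induced replicate 1 and control replicate 3 (adjusted p up to 0.106), in 2D control replicate 3 (up to 0.0859), and in C75 scrambled-guide replicate 1 and either C75 array (up to 0.118). Under own-array variance the calls in 3D and 2D were lost too, with 0.100 in 2D.

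PLA2R1, the transmembrane receptor that binds and clears secreted phospholipases, differed by 0.09 log2 in the induced line in 3D (limma adjusted p = 0.858) and had group means of 3.97 to 4.97. It rose by 0.50 log2 in the control line in 3D over 2D (limma adjusted p = 0.0174), a call lost without control 3D replicate 1 or control 2D replicate 2 (up to 0.0736). ANXA1, a glucocorticoid-induced inhibitor of phospholipase activity, was lower in C75 by -0.86 log2 (limma adjusted p = 0.0287), and this was lost without any 1 of the 4 arrays (up to 0.385). ANXA2, a related membrane-binding protein, was lower in the control line in 3D than in 2D by -0.64 log2 (limma adjusted p = 0.00149). VCAN, a matrix proteoglycan, was lower in the induced line in 3D by -0.48 log2 (limma adjusted p = 0.0357), and the call was lost without induced replicate 1 or 3 or control replicate 2 or 3 (up to 0.176), under own-array variance and with the replicate block.

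The intracellular phospholipases and the enzymes that clear platelet-activating factor had 23 of 24 genes measured. PLA2G4A, the cytosolic phospholipase that releases arachidonic acid inside the cell, had group means of 2.13 to 2.32 and a difference of 0.12 log2 in the induced line in 3D (limma adjusted p = 0.677). PNPLA3, a lipid-droplet acyl hydrolase, was higher in the induced line in 3D by 0.47 log2 (limma adjusted p = 0.0139; up to 0.0851 without induced replicate 1 or control replicate 3, and lost under own-array variance). In C75 it read 5.20 and 5.00 against 4.43 and 4.43 (0.67 log2, limma adjusted p = 0.0197; up to 0.305 without any 1 array). It was also higher in the control line in 3D than in 2D, by 0.64 log2 (limma adjusted p = 0.00117), where PAFAH1B1, a subunit of the platelet-activating factor hydrolase, was lower by -0.47 (limma adjusted p = 0.0107; up to 0.0601 without control 3D replicate 3, and lost under own-array variance).

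PLAAT3 and PLAAT4, small phospholipid acyltransferases, were higher in the induced line in 2D by 0.74 and 0.46 log2 (limma adjusted p = 0.0103 and 0.0296). The first call was lost without induced 2D replicate 1 or control 2D replicate 3 (up to 0.0740), and the second without induced replicate 2 or 3 or control replicate 2 or 3 (up to 0.169) and under own-array variance.

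Of the enzymes that make and clear eicosanoids, 28 of 29 were measured. PTGS1 and PTGS2, the cyclooxygenases that start prostaglandin synthesis, had group means of 2.83 to 3.11 and 2.26 to 2.56. Neither passed in any comparison, and PTGS2 differed by 0.01 log2 in the induced line in 3D (limma adjusted p = 0.985). AKR1C3, an aldo-keto reductase that makes prostaglandin F, was lower in 4 comparisons. It read 6.27, 6.63 and 6.21 in the induced line in 3D against 6.92, 6.84 and 6.88 (-0.51 log2, SE 0.11, limma adjusted p = 0.00444; 0.0639 under own-array variance). In 2D it read 6.97, 6.98 and 7.03 against 7.65, 7.66 and 7.72 (-0.69 log2, SE 0.11, limma adjusted p = 0.000311). In C75 it read 5.90 and 6.15 against 6.74 and 6.97 (-0.83 log2, SE 0.13, limma adjusted p = 0.00115), and this call was lost without scrambled-guide replicate 2 or C75 replicate 1 (up to 0.0579).

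The arrays of AKR1C3 did not overlap in those 3 comparisons, in which PLA2G2A was also lower. In C66, where PLA2G2A was lower too, the group mean of AKR1C3 was 7.04 against 6.86. With the shRNA, where PLA2G2A was higher, it was 6.53 against 6.46. AKR1C3 was also lower in the control line in 3D than in 2D, by -0.80 log2 (limma adjusted p = 4.44e-05), where PLA2G2A differed by -0.27. PTGES3, a prostaglandin E synthase and chaperone partner, was lower in that comparison too, by -0.57 (limma adjusted p = 0.00153). PTGR1, which inactivates prostaglandins and leukotriene B, was higher in the induced line in 3D by 0.55 log2 (limma adjusted p = 0.00507). PTGR2, a related reductase, was lower in 2D by -0.53 (limma adjusted p = 0.00925).

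Among 12 measured eicosanoid receptors of 14 listed, PTGDR, the prostaglandin D receptor, passed in 3 comparisons, each in the direction of PLA2G2A. In the induced line in 2D its group mean was 3.31 against 3.55, and it did not pass. PTGDR had most of its group means below 4.08, the median signal over all genes and arrays, where differences are understated. With the DPPA3 shRNA it read 4.50, 4.40 and 4.73 against 3.40, 3.60 and 3.69, a rise of 0.98 log2 (SE 0.12, limma adjusted p = 7.66e-05). In the induced line in 3D it read 3.10, 3.27 and 2.87 against 3.66, 3.59 and 3.48 (-0.50 log2, SE 0.12, limma adjusted p = 0.00862; up to 0.0842 without induced replicate 3, and lost under own-array variance). In C66 it read 3.24 and 3.23 against 4.10 and 4.21 (-0.92 log2, SE 0.14, limma adjusted p = 0.00038). In C75, where PLA2G2A was 3.19-fold lower, PTGDR read 4.81 and 4.68, above both control arrays, and did not pass (0.59 log2, limma adjusted p = 0.0526). OXER1, a receptor for an oxidised arachidonic acid, was higher in the induced line in 3D by 0.72 log2 (limma adjusted p = 0.00342). It was also higher in the control line in 3D over 2D, by 0.51 (limma adjusted p = 0.0377), which was lost without control 3D replicate 1 or 2 or control 2D replicate 2 or 3 (up to 0.171), under own-array variance and with arrays centred on their medians.

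Lysophospholipids are rebuilt by acyltransferases and acyl-CoA synthetases, and 25 of 28 genes of this list were measured. LPGAT1, a lysophosphatidylglycerol acyltransferase, read 5.21, 4.78 and 4.79 in the induced line in 3D against 4.17, 4.28 and 4.02, a rise of 0.77 log2 (SE 0.13, limma adjusted p = 0.000329), and rose by 0.78 in 2D (limma adjusted p = 0.000508). LPCAT2, which makes platelet-activating factor, read 6.20 and 5.89 in C75 against 6.96 and 6.86 (-0.86 log2, limma adjusted p = 0.00115; 0.0691 without C75 replicate 2). ACSL4, which activates arachidonic acid, was lower in the induced line in 3D by -0.58 log2 (limma adjusted p = 0.00551). In C66 the acyl-CoA synthetases ACSL1 and ACSL6 were higher by 0.74 and 0.50 (limma adjusted p = 0.0281 for both), and leaving out single arrays ended both calls (up to 0.329 for any array, and 0.537 for all but C66 replicate 2), and that of ACSL6 was also lost under own-array variance and with the replicate block. In the control line in 3D over 2D, GPCPD1, a glycerophosphocholine phosphodiesterase, rose by 1.17 (limma adjusted p = 4.44e-05) and ACSL5, an acyl-CoA synthetase, by 0.42 (limma adjusted p = 0.00649; 0.0682 under own-array variance).

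The antimicrobial products of Paneth cells and of the inflamed gut had 26 of 30 genes measured, and members moved in both directions in the induced line. The defensins DEFA5 and DEFA6 and lysozyme, LYZ, which define Paneth cells, had group means of 2.57 to 2.78, 2.67 to 3.02 and 2.41 to 2.67. They did not pass in any comparison, and their differences in the induced line in 3D were 0.07, -0.16 and -0.09 log2 (limma adjusted p = 0.832, 0.588 and 0.788). SLPI, a secreted inhibitor of neutrophil elastase, read 6.82, 6.75 and 6.46 in the induced line in 3D against 5.35, 5.32 and 5.29 (1.36 log2, SE 0.17, limma adjusted p = 7.05e-06). In 2D it read 7.03, 7.18 and 6.39 against 5.65, 5.56 and 5.56 (1.28 log2, SE 0.17, limma adjusted p = 2.77e-05).

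LCN2, which withholds iron from bacteria, read 7.37, 6.85 and 7.02 in the induced line in 3D against 6.29, 6.32 and 5.56 (1.03 log2, SE 0.17, limma adjusted p = 0.000343). In 2D it read 7.41, 7.47 and 7.65 against 5.92, 5.95 and 6.09 (1.52 log2, SE 0.17, limma adjusted p = 3.21e-06). Both genes were higher on every induced array, the opposite direction to PLA2G2A. REG4, a lectin of secretory cells, read 2.57, 2.32 and 2.53 in the induced line in 3D against 2.99, 3.20 and 2.85, a fall of 0.54 log2 (SE 0.11, limma adjusted p = 0.0027) on the side of PLA2G2A. Over the 26 genes the mean level of a group ran from 2.98 to 3.14.

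**Figure D4:**
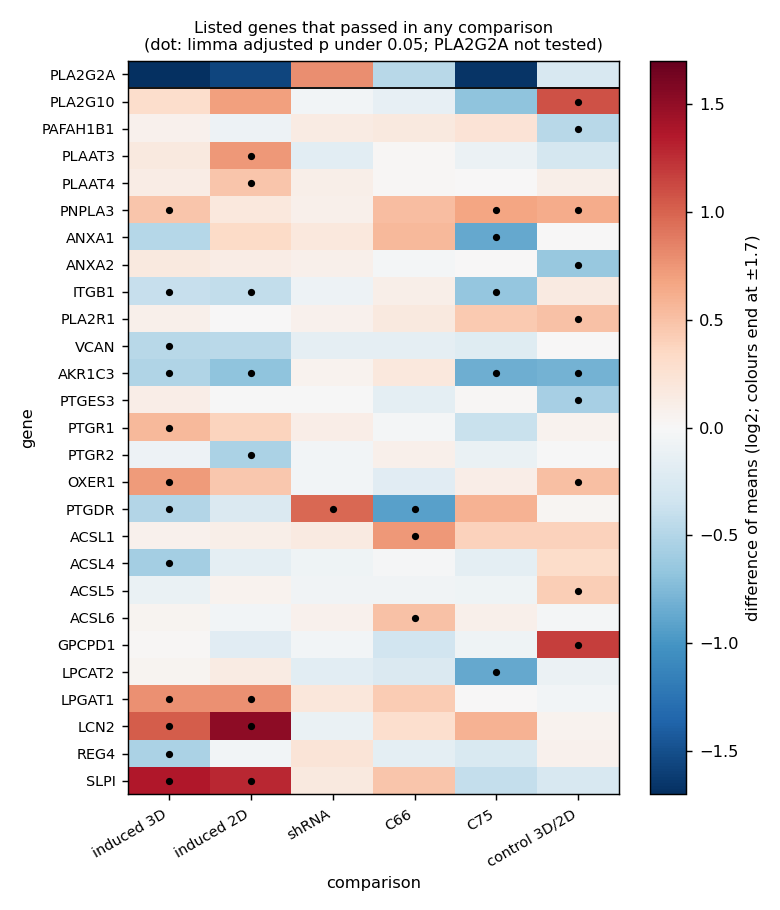
Differences between group means (log2, colour, ending at ±1.7) of PLA2G2A and of the pathway genes that passed in at least 1 of 6 comparisons; black dots mark limma adjusted p under 0.05, and PLA2G2A was not tested. In the induced line SLPI (1.36 and 1.28) and LCN2 (1.03 and 1.52) are higher while AKR1C3 (-0.51 and -0.69) and ITGB1 (-0.39 and -0.42) are lower, and the PLA2G2A value of -3.27 lies beyond the end of the colours.

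Further lists held genes of pathways that are described as inducing PLA2G2A in other settings. The Wnt list mixes genes counted as outputs of that pathway with crypt stem cell genes such as OLFM4, which need not be outputs. Its genes were not chosen as regulators of PLA2G2A. PLA2G2A is induced by inflammatory cytokines through NF-kappaB and C/EBP factors, and 32 genes of that kind were measured. LCN2, SLPI and REG4, which passed in the induced line in 3D, stood on the antimicrobial list and were not among these 32. Of the 32, 0 passed by limma in the induced line in 3D, in 2D, with the shRNA, in C66 or in the control line (7, 4, 6, 1 and 5 had an unadjusted p under 0.05). In C75 2 were lower, the cytokine IL1A (-0.96 log2, limma adjusted p = 0.00978) and the NF-kappaB inhibitor NFKBIA (-0.69, limma adjusted p = 0.00397). Both calls were lost without scrambled-guide replicate 1 or C75 replicate 2 (up to 0.285 and 0.146). PLA2G2A is also described as Wnt-responsive. Of 22 measured genes listed as Wnt targets, 2 were higher and 6 lower in the induced line in 3D. In 2D 3 were higher and 0 lower, and with the shRNA 0 and 0 (4 had an unadjusted p under 0.05). The counts were 2 and 2 in C66, 0 and 3 in C75, and 6 and 1 in the control line in 3D over 2D. Among all genes the shares were 2.93% higher and 2.77% lower in the induced line in 3D, and 1.87% and 1.26% in 2D. With the shRNA they were 0.0344% and 0.0516%, and in C66 0.871% and 0.562%. In C75 they were 0.138% and 0.481%, and in the control line 4.92% and 2.88%. In the induced line in 3D the largest change of the list was a rise, of 2.35 log2 in the stem cell glycoprotein OLFM4 (limma adjusted p = 2.36e-11). The receptor LGR5 rose by 0.59 (limma adjusted p = 0.00116), and both were opposite to PLA2G2A. The 6 lower genes went the same way as PLA2G2A. Among them were the Wnt inhibitor DKK1 (-0.73 log2, limma adjusted p = 0.00637) and BMP4 (-0.58, limma adjusted p = 0.0271). Both of these calls were lost without single arrays and under own-array variance. The Wnt antagonist APCDD1 fell by 0.83 log2 in the induced line in 3D (limma adjusted p = 9.73e-05), and by 0.84 in C75 (limma adjusted p = 0.00423; up to 0.0763 without any 1 array). The other lower genes in C75 were the Wnt inhibitors NKD1 (-0.62) and DKK1 (-0.88), and both calls were lost without single arrays (adjusted p up to 0.374 and 0.536). In C66 AXIN2 (0.49) and LEF1 (0.78) were higher, again lost without single arrays (up to 0.343 and 0.144), and the crypt stem cell genes LGR5 (-1.16) and SMOC2 (-1.26) were lower. LGR5 (1.02), OLFM4 (3.81) and SMOC2 were the 3 that rose in the induced line in 2D. SMOC2, a matricellular protein of crypt stem cells, rose by 1.77 log2 in the induced line in 2D (limma adjusted p = 1.19e-07), and the excess of its induced-line difference in 3D over that in 2D was -1.55 (limma adjusted p = 0.00146).

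Markers of goblet cells, the mucus-secreting cells of the colon, had some members lower in the induced line and went the other way between cultures. The mean level of 10 such genes was 4.95 in the induced line in 3D against 5.23, 4.72 in 2D against 4.90, 5.01 in C66 and 5.00 in C75 against 5.28, and 5.13 with the DPPA3 shRNA against 5.07. It was higher in 3D than in 2D in both lines, whereas PLA2G2A was 3.95-fold lower in 3D in the induced line. In the control line 4 of the 10 were higher in 3D and 0 lower, beside 4.92% and 2.88% of all genes. SPINK4, a goblet cell protease inhibitor, fell by 1.86 log2 in the induced line in 3D (limma adjusted p = 3.44e-07) and MUC2, the main gel-forming mucin, by 0.68 (limma adjusted p = 1.07e-05). CLCA1, a mucus protein, fell by 0.53 (limma adjusted p = 0.00564; 0.0591 without control replicate 1), whereas TFF3, the goblet cell trefoil factor, rose by 0.85 (limma adjusted p = 0.0002). SPINK4 was the marker that passed in 2D, where it fell by 0.99 (limma adjusted p = 0.00204). None of the 10 passed in C66, in C75 or with the shRNA, with 5, 4 and 4 at an unadjusted p under 0.05. With the shRNA TFF3 differed by -0.67 (limma adjusted p = 0.0534) while PLA2G2A was higher. The part of goblet cells in the PLA2G2A levels was not tested.

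Markers of absorptive enterocytes (11 genes) had a mean level of 4.29 in the induced line in 3D against 4.11, and 4.00 in 2D against 4.01. In the knockout experiment the mean was 4.70 in C66 and 4.47 in C75 against 4.53. SLC26A3, the chloride exchanger of the colon surface, rose by 1.17 log2 in the induced line in 3D (limma adjusted p = 3.81e-05) and by 1.53 in C66 (limma adjusted p = 7.38e-05). GUCA2A, which encodes guanylin, rose by 1.31 in C66 (limma adjusted p = 6.14e-05). There KRT20, a keratin of differentiated cells, was also higher (0.61, limma adjusted p = 0.0415) and the carbonic anhydrase CA2 lower (-0.81, limma adjusted p = 0.00894), both lost without single arrays (up to 0.510 and 0.246). In 2D KRT20 was lower in the induced line (-0.54, limma adjusted p = 0.0116; up to 0.0635 without single arrays), and 0 of 11 passed with the shRNA or in C75 (2 and 3 at an unadjusted p under 0.05).

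Among markers of other cells, KIT, a receptor of the mast cell list, rose by 3.08 log2 in the induced line in 3D (limma adjusted p = 1.86e-11) and by 1.06 in 2D (limma adjusted p = 0.000622), and fell by 1.38 in C66 (limma adjusted p = 0.000569). It was the 1 gene of the 5 measured that passed in those comparisons. The macrophage marker CD68 rose by 0.71 in C66 (limma adjusted p = 0.0108; up to 0.218 without single arrays), and the epithelial cadherin CDH17 was lower in the induced line in 2D (-0.32, limma adjusted p = 0.0482; up to 0.180 without single arrays). All arrays were of the cultured SW1222 line, so these are readings of the marker genes in cancer cells. Their relation to the PLA2G2A levels was not tested.

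The genes whose pattern was most like that of PLA2G2A were sought by Pearson's r over the 24 arrays, after each gene's mean over the arrays of an experiment (induction, shRNA or knockout) was subtracted. Among 474 genes whose centred group means spanned at least 1 log2, the highest r were those of HSPA14 (0.938), GTSE1 (0.938), GTPBP4 (0.906), CDC123 (0.902), MCM10 (0.900) and GAL (0.883). The lowest were those of SMIM14 (-0.947), MACC1 (-0.933), IL2RG (-0.898), PARM1 (-0.889), STOML3 (-0.883) and SCARNA11 (-0.873). The arrays share these cells and cultures, and the genes were chosen by the likeness, so the values are a description. With Spearman's rho in place of r, 6 of the 12 genes were chosen again, and with the 9 group means in place of the arrays, 10.

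GTSE1, a microtubule-binding protein of G2 and S phase, differed by -0.95 log2 in the induced line in 3D, -0.62 in 2D and -0.68 in C75, beside 0.18 with the shRNA and 0.10 in C66. MCM10, a DNA replication factor, differed by -1.18, -0.70 and -0.83 in the first 3 of these comparisons, and GAL, which encodes the neuropeptide galanin, by -1.35, -0.37 and -1.42. GAL thereby came nearest to PLA2G2A in C75 (-1.67). HSPA14, GTPBP4, CDC123 and MCM10 all lie on chromosome 10, at places 63, 6, 50 and 54 of its 648 measured genes. GTSE1 and GAL lie on chromosomes 22 and 11, and the 6 genes of opposite pattern on chromosomes 4, 7, X, 4, 13 and 12.

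Of the genes with the opposite pattern, STOML3, a membrane protein related to stomatin, differed by 1.99 log2 in the induced line in 3D, 1.09 in 2D and 0.71 in C75. MACC1, a gene linked to colon cancer metastasis, differed by 1.01, 0.61 and 0.13. With the shRNA, where PLA2G2A was higher, MACC1 differed by -0.33 and IL2RG, the common cytokine receptor chain, by -0.37. In C66 the 12 genes differed by -0.14 to 0.25 log2, beside -0.47 for PLA2G2A.

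**Figure D5:**
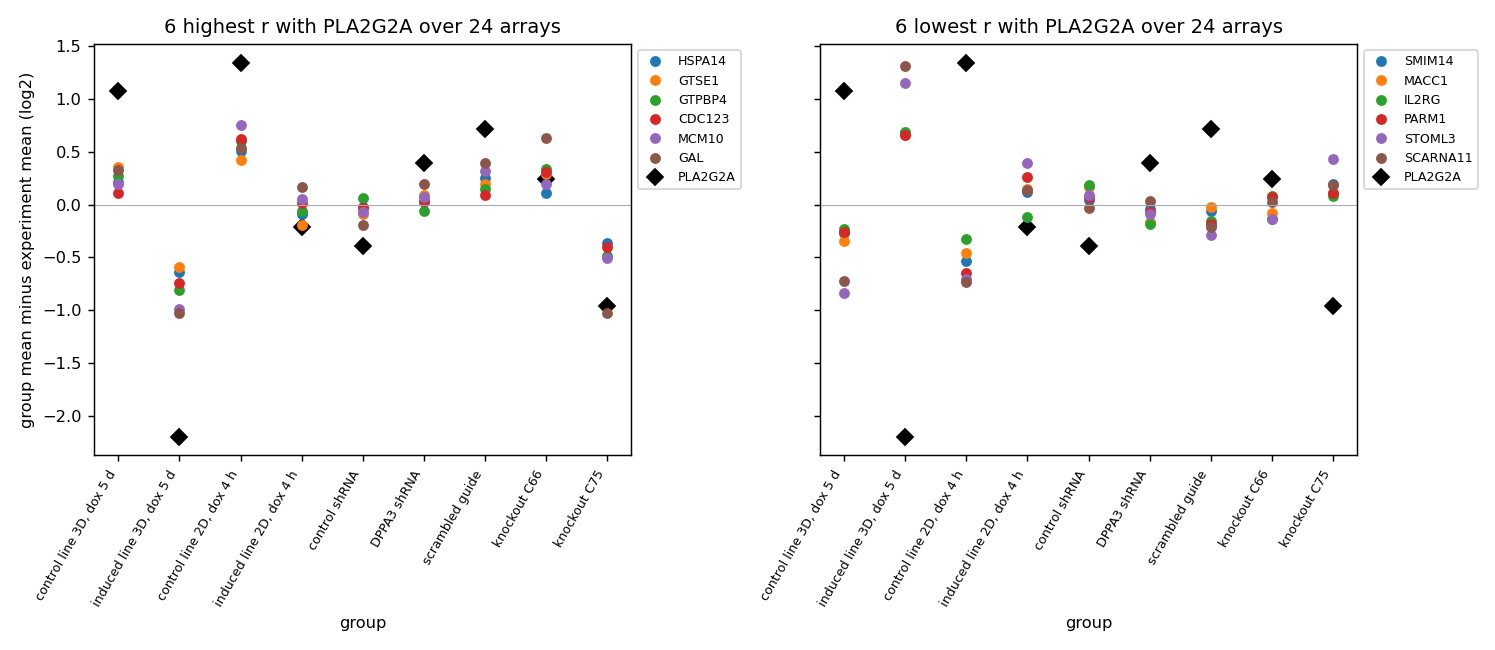
Group means minus the mean of their experiment (log2) for PLA2G2A (black diamonds) and the 6 genes of highest r (left, 0.883 to 0.938) and of lowest r (right, -0.947 to -0.873) over the 24 arrays. The genes on the left are low in the induced line in 3D and in C75, as PLA2G2A is, with smaller spans, and those on the right are highest in the induced line in 3D.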

How the data were processed

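Total RNA was extracted with Trizol, labelled with biotin following Affymetrix, per the labels' protocols. The authors deposited log2 values, for which the submitters' processing notes name Partek 6.6 and the method RMA. This method subtracts background, gives all arrays the same distribution and summarises the probes of a set, so a change in total RNA per cell would not show. The values ran from 1.56 to 12.5. A genome build of the probes is not given in the sources used.

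Of 20276 probe sets, 18062 carried 1 gene symbol in the platform annotation, 1288 several and 926 none, and only the first were used. Of these 18036 matched RefSeq by gene identifier. For 468 genes with more than 1 probe set the one with the highest mean was taken, giving 17448 genes. All 24 arrays entered 1 fit by limma 3.58.1 in R 4.3.3, each group with its own coefficient (15 residual and 9.81 prior degrees of freedom, 2-sided). The threshold was an adjusted p of 0.05, after Benjamini-Hochberg over the 17448 genes. PLA2G2A received no test and was left out of every list. The pipeline was tested on simulated data.

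The gene, the lists and the rule for naming genes were chosen with earlier results of these data known. Named were PLA2G2A and DPPA3, the secreted phospholipases, 7 genes whatever their values (PLA2R1, PLA2G4A, PTGS1, PTGS2, LYZ, DEFA5 and DEFA6), and from each of the 7 pathway lists up to 3 members per direction and comparison with the largest change among those that passed. Also named were the 12 genes of highest and lowest likeness and the neighbours that passed. Members of the Wnt, inflammatory and cell type lists were picked after their values were seen. Alternatives were another probe set rule, centring each array on its median, bright genes only, a trended robust prior, variance from the arrays of a comparison alone, a replicate block, and leaving out each array.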

Additional observations from a re-analysis of the deposited data

Results flagged for a closer look

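PLA2G2A moved in opposite directions in the models meant to lose DPPA3. With the DPPA3 shRNA it was 0.79 log2 higher than its control on every array, and it was lower on every array of the knockout clones, by -0.47 in C66 and -1.67 in C75. PTGDR, the prostaglandin D receptor, was 0.98 log2 higher with the shRNA on all 3 arrays and differed by -0.92 in C66 on both arrays. In C75 both PTGDR arrays lay above both controls (0.59 log2, not past the threshold, limma adjusted p = 0.0526), the direction of the shRNA, so the clones also lay on opposite sides of their control. These differences between the models were not tested, and DPPA3 itself showed no measurable loss in any of them. Its signal was already dim in their control arrays (2.68 to 3.15), so a loss could be missed.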

How the results depend on the processing

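The differences of PLA2G2A kept their direction under every alternative run. Leaving out single arrays gave -3.45 to -3.18 for the induced line in 3D, -2.16 to -1.89 for the induced line in 3D over 2D, and -1.89 to -1.62 for the excess of the 3D over the 2D difference, in each case lowest without induced 3D replicate 2. Of the 136 pathway genes, 12, 8, 1, 3, 5 and 10 passed in the induced line in 3D, in 2D, with the shRNA, in C66, in C75 and in the control line in 3D over 2D, and 0 for the excess. Without single arrays the counts ran from 9 to 16, 6 to 9, 1 to 1, 1 to 2, 1 to 2 and 8 to 11, and 0 to 1 for the excess. With variance from the arrays of a comparison alone, the count in the control line was 6, and the cause was not tested. Over all genes that setting gave 468 against 995 in the induced line in 3D, 314 against 546 in 2D, 562 against 1361 in the control line and 7 against 42 for the excess. Without single arrays the lowest counts over all genes were 663, 391, 8, 89, 38, 875 and 11, in the same order, and the count for the excess rose to 70 without induced 3D replicate 2. Centring the arrays on their medians gave 14 pathway genes in the induced line in 3D.

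Same-numbered replicates had correlations of deviations across genes from -0.209 to 0.168, and the main fit treated all arrays as unpaired. Deviations were taken from means of 2 or 3 arrays, so this check cannot show that arrays were unpaired. Induced 3D replicate 2 and control 3D replicate 3, with different numbers, reached 0.290. With the replicate block, 11, 9, 1, 3, 5, 10 and 0 pathway genes passed. A block across both cultures, added after seeing the data, gave 10 in the control line and 0 for the excess. Where a group of 2 lost an array, the remaining one was assumed to vary like the other groups. Signals near the dim end of the scale understate differences. Among them are those of DPPA3, the defensins, PTGS1, PTGS2, PLA2G4A and most other secreted phospholipases.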
